A study of Mus musculus with 24 samples.

Results

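The chromodomain helicase DNA-binding (CHD) family was followed through RNA-seq of Neuro2A cells, a mouse neuroblastoma line, by taking from the deposited count table the genes whose symbols are Chd1 to Chd9. All 9 members were among the 39253 listed genes, and all 9 were among the 13901 genes with a level of 0.5 CPM (counts scaled to library size) or more in at least 3 of the 24 samples, which were tested. The samples formed 8 groups of 3. In 6 groups the cells had been transfected transiently with plasmids for an RNA-targeting CRISPR effector, which was RfxCas13d, its high-fidelity variant HiFi-RfxCas13d (RfxCas13d-N2V7) or DiCas7-11. With each effector the cells received either a crRNA against the mouse ataxin-2 mRNA (mATXN2) or a non-targeted (NTG) crRNA, and they were harvested 48 hr after transfection. One of the other groups was left untransfected, and in the last an ataxin-2-targeting antisense oligonucleotide (ASO) served as a positive control, whose dose and sequence were not given in the sources used here. The sample labels gave no time of harvest for either of these groups. All cells were labelled wild-type, and the transfected cultures were sequenced whole, with no separation of cells that had taken up plasmid described. The column headers of the count table named the arms of each effector EV and G12, where the sample titles have NTG and G10. Whether the control arm held the NTG crRNA or an empty vector is therefore in doubt, as is the number of the mATXN2-targeting crRNA. The arms are called NTG and mATXN2 here after the labels.

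CHD proteins are ATP-driven remodelers that slide, evict or exchange nucleosomes, and they carry a pair of chromodomains in front of a SNF2-type helicase motor. They fall into 3 subfamilies. Chd1 and Chd2 work on transcribed and regulatory chromatin, where Chd1 binds methylated histone H3 tails and assists elongation by RNA polymerase and Chd2 helps to place the histone variant H3.3. Chd3, Chd4 and Chd5 are alternative motors of the NuRD complex, which joins remodeling to histone deacetylation, with Chd4 the general one and Chd5 mainly neuronal and known as a tumour suppressor in neuroblastoma. Chd6, Chd7, Chd8 and Chd9 form the subfamily with BRK domains, in which Chd7 is the gene of CHARGE syndrome and Chd8 a leading autism risk gene. Human CHD2 variants cause a childhood epilepsy.

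The stretch of coding sequence around the DEAH box, the part of the motor that binds the metal ion for ATP hydrolysis, is shown for each member, since it displays both the family's shared core and the subfamilies. Each run is 60 bases of the longest coding sequence of the gene in GENCODE M21 (build GRCm38), in the sense of the mRNA from 5′ to 3′, and the 12 bases in capitals encode Asp-Glu-Ala-His.
Chd1: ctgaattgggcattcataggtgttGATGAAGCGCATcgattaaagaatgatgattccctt
Chd2: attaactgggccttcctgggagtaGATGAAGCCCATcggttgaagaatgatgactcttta
Chd3: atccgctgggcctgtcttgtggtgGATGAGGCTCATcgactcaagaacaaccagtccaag
Chd4: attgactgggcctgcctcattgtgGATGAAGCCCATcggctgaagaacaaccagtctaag
Chd5: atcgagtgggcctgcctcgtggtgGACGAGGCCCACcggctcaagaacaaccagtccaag
Chd6: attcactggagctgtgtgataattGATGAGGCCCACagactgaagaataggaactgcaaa
Chd7: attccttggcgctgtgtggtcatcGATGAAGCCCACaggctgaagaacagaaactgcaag
Chd8: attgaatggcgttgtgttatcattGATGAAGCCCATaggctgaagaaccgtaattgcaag
Chd9: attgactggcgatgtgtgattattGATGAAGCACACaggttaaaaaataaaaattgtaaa

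Within the NuRD subfamily 48 to 51 of the 60 bases were identical between any pair of members, within Chd6 to Chd9 44 to 49 were, and Chd1 and Chd2 shared 45. Between subfamilies the number was between 29 (Chd1 with Chd7) and 44 (Chd2 with Chd4). Over the whole transcripts, however, the members shared almost no runs of 31 bases. Chd3 and Chd4 had 8 such runs in common, Chd8 and Chd9 had 2, and every other pair had none, so few reads could have been divided between members.

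All 24 libraries held the neuroblastoma markers Phox2a (67.9 to 81.6 CPM), Hand2 (359.8 to 410.2 CPM) and Gata2 (197 to 250.2 CPM), while the neurofilament genes Nefl and Nefm were at or near 0. None of the listed microglia and blood or astrocyte markers passed 0.5 CPM in the median sample. Of 5 fibroblast markers 3 were detected in untransfected cells, with a summed level of 8.10 to 8.55 CPM, and 2 in every other group, with 5.31 to 6.05 CPM with the ASO, 5.18 to 8.25 CPM with RfxCas13d NTG, 5.80 to 6.85 CPM with HiFi-RfxCas13d NTG and 5.73 to 6.76 CPM with DiCas7-11 NTG. Of 4 oligodendrocyte markers 2 were detected, with 13.9 to 18.9 CPM over all samples. Total counts were 12665725 to 19857305 in 21 libraries and higher, 21874644 to 22504999, in the 3 ASO libraries. Differences between replicates were 1.68 to 2.55 times counting noise (chi-square per gene) in 7 groups and 3.33 to 5.58 times in the NTG group of DiCas7-11. In several groups most members lay on the same side of the group mean in 1 replicate. Above their group's mean were 1 of 9 members in replicate 1 and 9 of 9 in replicate 3 of DiCas7-11 NTG, 0 and 8 of 9 in the same replicates of RfxCas13d NTG, 8 of 9 in replicate 3 of HiFi-RfxCas13d NTG and of the ASO group, and 7 and 1 of 9 in replicates 1 and 3 of the untransfected cells. In bulk RNA, fewer cells expressing a gene and less RNA per cell cannot be told apart.

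Every member was expressed in untransfected cells, with Chd4 far ahead of the rest. Levels between genes were compared as CPM per kb of coding sequence. Chd4 reached 110.5 ± 4.10 (SD, n = 3), followed by Chd1 at 29.3 ± 0.558, Chd3 at 25.03 ± 0.257, Chd8 at 18.7 ± 0.771 and Chd2 at 15.5 ± 1.14. Chd6 came next at 12.4 ± 1.19 and Chd9 at 10.8 ± 0.486, 2 neighbours whose means lay within their combined spread. Chd7 followed at 7.33 ± 0.328, and Chd5, the neuronal NuRD motor, was lowest at 3.88 ± 0.187. The 3 alternative NuRD motors therefore spanned the whole range of the family. Scaled by transcript length instead, Chd3 (21.3 ± 0.218 CPM per kb) passed Chd1 (19.0 ± 0.362), and Chd6 (9.59 ± 0.924) and Chd2 (9.35 ± 0.687) changed places within their spread.

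**Figure D1:**
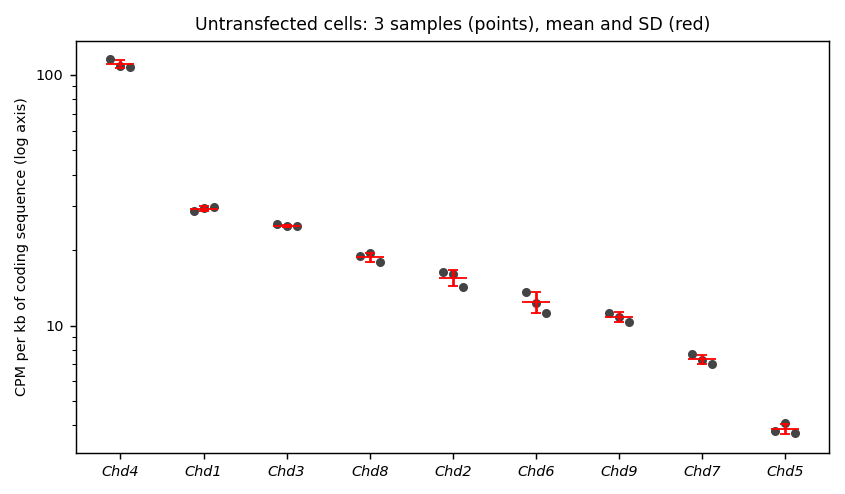
Level of each CHD member in the 3 untransfected samples, as CPM per kb of coding sequence on a log axis, with points for samples and red bars for mean and SD. Chd4 at 110.5 stands above the other members, and Chd5 at 3.88 is lowest.

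The targeted gene was checked first. Atxn2 measured 123, 125 and 121 CPM in untransfected cells and 54.1, 52.9 and 48.8 CPM with the ASO. Its mATXN2 samples were below the NTG samples of the same effector, with RfxCas13d at 112 to 116 against 119.8 to 125 CPM, with HiFi-RfxCas13d at 98.7 to 104 against 112 to 123 CPM and with DiCas7-11 at 101 to 106 against 115 to 120.5 CPM. In edgeR's quasi-likelihood test with Benjamini-Hochberg adjustment over all tested genes, the test used throughout, the log2 fold change was -0.23 (SE 0.037, adjusted p = 0.00157) for HiFi-RfxCas13d and -0.20 (SE 0.037, adjusted p = 0.00557) for DiCas7-11. For RfxCas13d it was -0.10 (SE 0.037, adjusted p = 0.178), which did not pass.

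The family changed most with the ASO. Against untransfected cells, 8 of the 9 members rose and none fell, where 42.7% of all tested genes were called in either direction and 21% were called higher. The groups did not overlap for these 8 members, as was the case in the same direction for 25.8% of all genes. The median log2 fold change of the 9 members was 0.25, beside -0.0021 for all genes. None of the 8 groups received a control oligonucleotide, so loss of ataxin-2 cannot be told apart from effects of the oligonucleotide or its delivery. The ASO libraries were also the deepest, and their fibroblast marker sum was below that of untransfected cells, as it was in the HiFi-RfxCas13d and DiCas7-11 NTG arms, and the part of either in these changes was not tested.

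Chd2 had the largest change. It measured 89.4, 87.6 and 77.8 CPM in the untransfected samples and 164, 170.0 and 171 CPM in the ASO samples, or 85.0 ± 6.24 and 168 ± 3.54 CPM (SD, n = 3 each). No other sample came near, since all 21 samples without the ASO lay between 77.8 and 95.2 CPM. The log2 fold change was 0.98 (SE 0.043, edgeR adjusted p = 1.3e-16), a rise of 97.5%, and it remained at 0.90 (SE 0.037, adjusted p = 1.26e-18) after correction for coding length. Chd1, the closest relative of Chd2, rose much less, from 147, 151 and 153 CPM to 168, 166 and 169 CPM, a log2 fold change of 0.16 (SE 0.031, adjusted p = 1.39e-04).

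Among the NuRD motors, Chd3 rose from 156, 153 and 153 CPM to 184, 179.8 and 185 CPM, by 0.25 on the log2 scale (SE 0.034, edgeR adjusted p = 8.77e-07). Chd4 measured 664, 626 and 622 CPM without and 673, 671 and 674 CPM with the ASO, a narrow separation with a log2 fold change of 0.077 (SE 0.031, adjusted p = 0.0461). That call was lost when any of 5 of the 6 libraries was left out, the exception being replicate 1 of the untransfected cells, and also in the limma-trend procedure of the paper (adjusted p = 0.0924). Chd5 did not separate, with 22.3, 23.96 and 21.9 CPM against 22.4, 24.98 and 21.7 CPM (log2 fold change 0.016, SE 0.068, adjusted p = 0.876).

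All 4 members of the BRK subfamily rose with the ASO. Chd7, which acts at enhancers, went from 68.8, 65.3 and 63.0 CPM to 83.7, 86.5 and 93.0 CPM (log2 fold change 0.42, SE 0.052, edgeR adjusted p = 1.93e-07). Chd9 went from 97.5, 93.8 and 89.1 CPM to 118, 113 and 119 CPM (0.32, SE 0.037, adjusted p = 5.46e-08). Chd6 rose by 0.25 on the log2 scale (SE 0.045, adjusted p = 4.09e-05), from a spread-out 111, 99.9 and 91.7 CPM to 122, 118 and 121 CPM. Chd8, which binds beta-catenin and restrains its targets, rose by 0.15 (SE 0.040, adjusted p = 0.00219), from 146, 150.5 and 139 CPM to 159.6, 158 and 168 CPM.

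**Figure D2:**
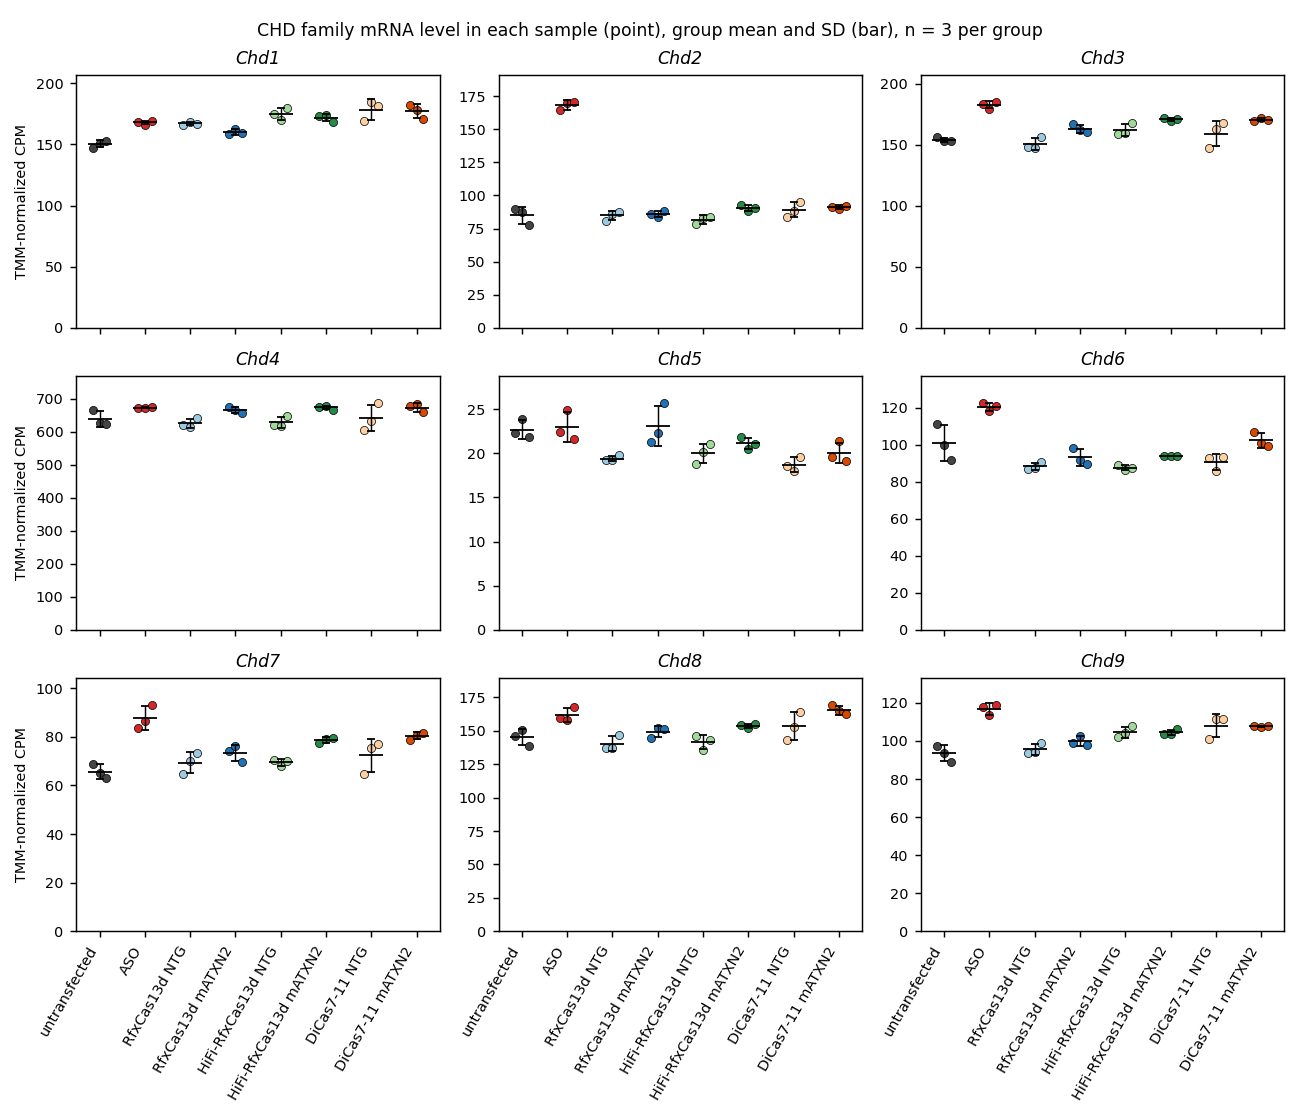
TMM-normalized CPM of each CHD member in all 24 samples, on axes that start at 0, with points for samples and bars for the mean and SD of the 3 samples of a group. The ASO samples of Chd2 (164 to 171 CPM) stand apart from the 21 others (77.8 to 95.2 CPM), while the other members vary within narrower limits.

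The CHD genes are long, and length moved with the result. Their coding sequences ran from 5133 bases (Chd1) to 8958 bases (Chd7), beside a median of 1416 bases among tested genes. With the ASO, the median log2 fold change of other genes with a coding length went from -0.10 for coding sequences under 500 bases to 0.26 for those over 8000 bases. Among the 510 other tested genes with coding sequences at least as long as that of Chd1, 48.0% were called higher and the median was 0.14. When the length trend was removed from each library, 46.3% of the 12128 genes with a coding length were called and 5 members remained called, namely Chd1 (0.089), Chd2, Chd3 (0.14), Chd7 (0.24) and Chd9 (0.15), while Chd6 (0.093, adjusted p = 0.0578), Chd8 (0.0051, adjusted p = 0.909) and Chd4 (-0.014, adjusted p = 0.643) were not.

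**Figure D3:**
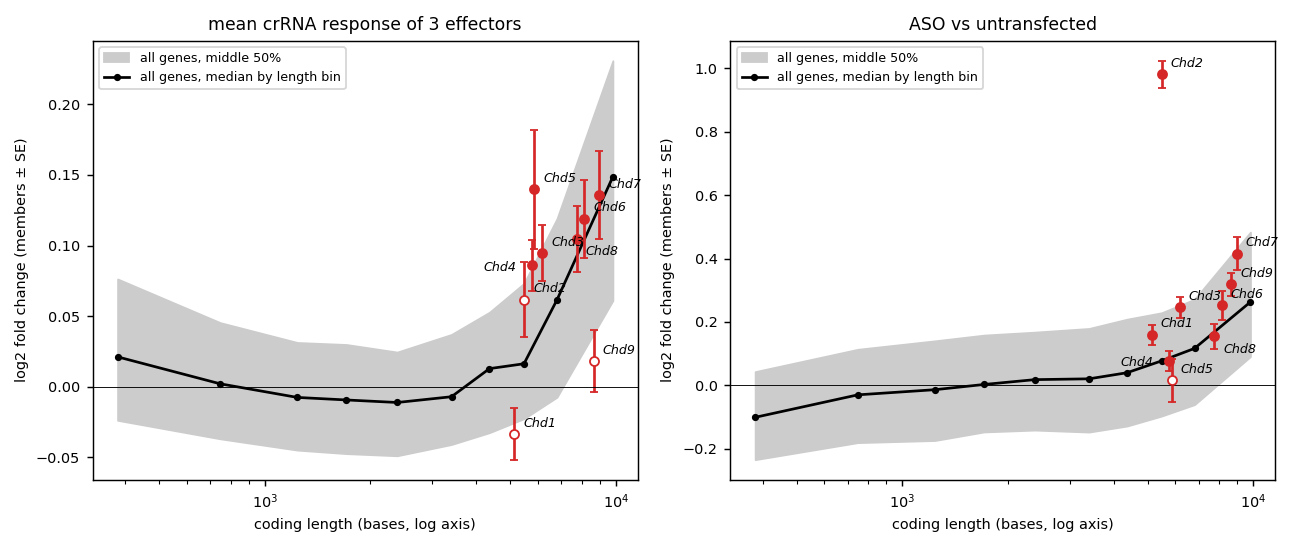
Log2 fold change against coding length in bases (log axis), for the mean crRNA response (left) and the ASO (right). The black line is the median, in bins of length, of the tested genes with a coding length other than the members, and the grey band their middle 50%. The red points with SE are the 9 members, filled where edgeR's adjusted p was under 0.05. Chd2 lies far above the line with the ASO, while most members lie near the rising end of it in both panels.

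With the mATXN2 crRNA, no member passed the test in any single effector, although most measured slightly higher than with the NTG crRNA. The share of all genes called with RfxCas13d was 1.39%, with HiFi-RfxCas13d 0.295% and with DiCas7-11 0.942%. By edgeR's unadjusted p under 0.05 the counts were 4, 6 and 5 of 9 members, against 13.8%, 7.45% and 14% of all genes. DESeq2 called 0, 0 and 1 member (Chd6), where it called 1.58%, 0.367% and 1.17% of all genes. The limma-trend procedure of the paper, which adjusts over 10 comparisons together, called 2, 4 and 3 members, all higher, and 5.09%, 1.94% and 4.58% of all genes. Log2 fold changes above 0 were found for 8, 7 and 7 of 9 members, with medians of 0.080, 0.10 and 0.096. Of all genes, 50.5%, 49.3% and 49.5% were above 0. Of the 510 other genes at least as long as Chd1 in coding sequence, 67.1%, 76.9% and 72.2% were, with medians of 0.052, 0.070 and 0.067.

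The member nearest to the threshold differed between effectors. For RfxCas13d it was Chd5, with 19.2, 19.3 and 19.8 CPM in the NTG samples and 21.3, 22.3 and 25.7 CPM in the mATXN2 samples (log2 fold change 0.25, SE 0.073, edgeR adjusted p = 0.0877). For HiFi-RfxCas13d it was Chd7, with 70.6, 67.9 and 69.9 CPM against 77.3, 79.0 and 79.7 CPM (0.18, SE 0.053, adjusted p = 0.219). For DiCas7-11 it was Chd6, with 93.0, 85.7 and 93.3 CPM against 106.9, 100.9 and 99.5 CPM (0.18, SE 0.047, adjusted p = 0.0647). None of these pairs of groups overlapped. Under the other settings of scaling, filter, test and length correction, these log2 fold changes went down to 0.21 (Chd5), 0.070 (Chd7) and 0.088 (Chd6). In all, 3 members had mATXN2 samples wholly above the NTG samples with RfxCas13d (Chd3, Chd4 and Chd5), 6 with HiFi-RfxCas13d (Chd2, Chd3, Chd4, Chd6, Chd7 and Chd8) and 3 with DiCas7-11 (Chd3, Chd6 and Chd7), where 10.3%, 6.97% and 7.25% of all genes did. Among the 510 other long genes, 165, 174 and 127 separated upwards in the same comparisons. Only Chd1 with RfxCas13d separated downwards (9.92% of all genes did), with 158, 163 and 159.0 CPM against 166, 169 and 167 CPM (log2 fold change -0.063, SE 0.032, adjusted p = 0.393).

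The effectors did not differ detectably in these responses. Tested as interactions, none of the 9 members was called in any of the 3 differences between effectors, nor was any other gene (0%) by edgeR, and no member had an unadjusted p under 0.05. The differences for members lay between -0.17 and 0.13 on the log2 scale, with SE between 0.044 and 0.10. DESeq2 called no member, and 0%, 0.0216% and 0.0216% of all genes.

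When the 3 effectors were averaged, 6 of the 9 members rose and none fell, where 5.19% of all genes were called and 2.95% were called higher. The rises were small. Among the NuRD motors, Chd3 rose by 0.095 on the log2 scale (SE 0.020, edgeR adjusted p = 0.00409), Chd4 by 0.086 (SE 0.018, adjusted p = 0.00380) and Chd5 by 0.14 (SE 0.042, adjusted p = 0.0481). In the BRK subfamily, Chd6 rose by 0.12 (SE 0.028, adjusted p = 0.00870), Chd7 by 0.14 (SE 0.031, adjusted p = 0.00768) and Chd8 by 0.10 (SE 0.023, adjusted p = 0.00657). Chd9 differed from its subfamily in not passing, at 0.018 (SE 0.022, adjusted p = 0.732), a contrast between genes that was not tested. Neither Chd1 (-0.033, SE 0.018, adjusted p = 0.343) nor Chd2 (0.062, SE 0.027, adjusted p = 0.200) passed, so the member with the largest response to the ASO was not called by edgeR under any effector or their mean. The limma-trend procedure did call Chd2 higher with HiFi-RfxCas13d (adjusted p = 0.0313).

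The rises of the mean response also moved with length. Among the 510 other long genes, 29.4% were called higher and the median log2 fold change was 0.063. For coding sequences over 8000 bases the median of genes other than the members was 0.15. After the correction for coding length, with 5.3% of genes called, none of the 6 members was, with log2 fold changes between 0.022 (Chd8, adjusted p = 0.560) and 0.093 (Chd5, adjusted p = 0.212). Under that correction Chd1 (-0.066, adjusted p = 0.0210) and Chd9 (-0.079, adjusted p = 0.0133) were called lower. The call of Chd5 was also lost in most of the fits that left out a library, with adjusted p up to 0.130.

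In the control arms, against untransfected cells, Chd1 rose and Chd6 fell with all 3 effectors, Chd9 rose with HiFi-RfxCas13d and DiCas7-11, and Chd5 fell with RfxCas13d and DiCas7-11. These comparisons and that of the ASO share the untransfected samples, and each NTG group also serves in the comparison with mATXN2, so they are set side by side only. Members were called at 3 of 9 for RfxCas13d (11.3% of all genes), 3 of 9 for HiFi-RfxCas13d (21%) and 4 of 9 for DiCas7-11 (21.9%). The fibroblast marker sum was below that of untransfected cells in the HiFi-RfxCas13d and DiCas7-11 arms and overlapped it in the RfxCas13d arm, and its part in these changes was not tested.

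Chd1 rose with all 3 effectors. From 147, 151 and 153 CPM in untransfected cells it reached 166, 169 and 167 CPM with RfxCas13d (log2 fold change 0.15, SE 0.032, edgeR adjusted p = 0.00200). With HiFi-RfxCas13d it reached 175, 169.7 and 180.2 CPM (0.22, SE 0.032, adjusted p = 1.49e-05). With DiCas7-11 it reached 169, 185 and 182 CPM (0.25, SE 0.032, adjusted p = 2.02e-06). None of these groups overlapped with untransfected cells, as was so in the same direction for 13.9%, 17.6% and 15.5% of all genes.

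Chd9 measured 93.8, 94.0 and 99.1 CPM with RfxCas13d, close to untransfected cells (0.033, SE 0.039, edgeR adjusted p = 0.670). It was higher with HiFi-RfxCas13d, at 102, 104 and 108 CPM (0.16, SE 0.039, adjusted p = 0.00363), and with DiCas7-11, at 101, 112 and 111 CPM (0.21, SE 0.039, adjusted p = 2.54e-04). Comparing the control arms with each other, a test added after these values had been seen, Chd9 was higher with DiCas7-11 than with RfxCas13d by 0.18 (SE 0.038, adjusted p = 0.00831) and was the only member called in the 3 comparisons, in which 3.39% (DiCas7-11 against RfxCas13d), 0.619% (HiFi-RfxCas13d against RfxCas13d) and 0.705% (HiFi-RfxCas13d against DiCas7-11) of all genes were called. That call was lost without replicate 2 or replicate 3 of the DiCas7-11 NTG group, and without its replicate 1 the count of members was 4.

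Chd6 fell with all 3 effectors, to 87.0, 87.6 and 90.5 CPM with RfxCas13d, by 0.19 on the log2 scale (SE 0.048, edgeR adjusted p = 0.00810). With HiFi-RfxCas13d it fell to 89.1, 86.6 and 87.2 CPM, by 0.21 (SE 0.048, adjusted p = 0.00228), and with DiCas7-11 to 93.0, 85.7 and 93.3 CPM, by 0.16 (SE 0.048, adjusted p = 0.0170). The last group overlapped with the untransfected samples, and replicate 1 of the untransfected cells was high for 7 of the 9 members, Chd6 among them. Without that library Chd6 was called for HiFi-RfxCas13d but not for RfxCas13d (-0.12, adjusted p = 0.122) or DiCas7-11 (-0.083, adjusted p = 0.233), and the count for RfxCas13d went from 3 to 1.

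Chd5 fell from 22.3, 23.96 and 21.9 CPM to 18.6, 18.0 and 19.6 CPM with DiCas7-11, by 0.28 on the log2 scale (SE 0.074, edgeR adjusted p = 0.00646). With RfxCas13d it fell by 0.23 (SE 0.073, adjusted p = 0.0410), a call that was lost on leaving out any 1 of the 6 libraries. With HiFi-RfxCas13d it measured 18.8, 20.1 and 21.1 CPM and did not pass (-0.19, SE 0.073, adjusted p = 0.0684). For DiCas7-11 the count rose from 4 to 7 without replicate 1 of its NTG group, the library in which the members were low, with Chd3, Chd7 and Chd8 called higher as well.

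**Figure D4:**
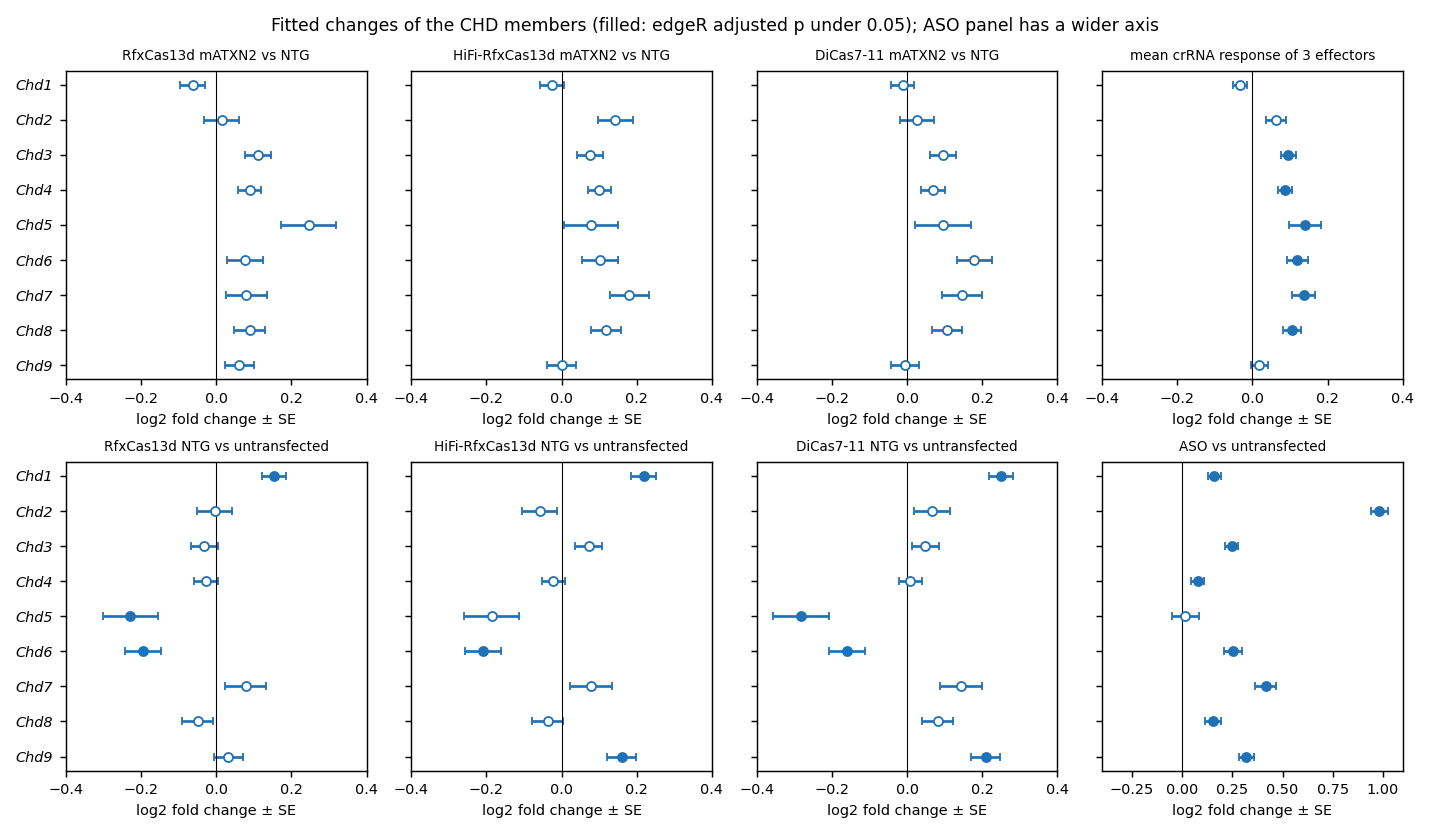
Log2 fold change ± SE of the 9 members in 8 comparisons, with filled points where edgeR's adjusted p was under 0.05. The crRNA panels hold no filled points apart from the mean response, the NTG panels show Chd1 above 0 and Chd6 below 0, and the ASO panel, on a wider axis, shows Chd2 at 0.98.

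Across all 8 groups together, each of the 9 members differed between some groups by edgeR, where 50.3% of all genes did. The adjusted p ran from 1.72e-17 for Chd2 to 0.00588 for Chd4, the most abundant and steadiest member, whose highest sample was 1.13 times its lowest. The same ratio was 2.20 for Chd2 and between 1.24 and 1.48 for the others.

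Of 12 partners of the CHD motors in NuRD, none was called by edgeR with any mATXN2 crRNA, where 1.39%, 0.295% and 0.942% of all genes were, or in the mean response, where 5.19% were. With the ASO 4 were lower and 1 was higher, a share of 41.7% that was close to the 42.7% of all genes. Mta1, a scaffold subunit, fell by 0.58 on the log2 scale (SE 0.041, edgeR adjusted p = 4.04e-12), and the deacetylases Hdac2 and Hdac1 fell by 0.19 (SE 0.033, adjusted p = 2.14e-05) and by 0.18 (SE 0.032, adjusted p = 2.42e-05). In each of the 3 NTG arms 16.7% of the partners were called, beside 11.3%, 21% and 21.9% of all genes. Mta1 fell with RfxCas13d (by 0.19, edgeR adjusted p = 0.00293) and HiFi-RfxCas13d (by 0.18, adjusted p = 0.00294). Cdk2ap1 rose with all 3 NTG arms, by 0.12, 0.12 and 0.16 (adjusted p = 0.0348, 0.0218 and 0.00320). Mta2 rose with DiCas7-11 NTG (0.14, adjusted p = 0.0252). Of the 3 partners of Chd4 in the ChAHP complex, which holds an HP1 protein, Cbx3 fell by 0.21 (SE 0.034, adjusted p = 7.44e-06) and Cbx1 by 0.15 (SE 0.035, adjusted p = 9.21e-04) with the ASO, 2 of 3 beside 42.7% of all genes, and none was called by edgeR under a crRNA.

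Among 13 other SNF2-family ATPases, Ep400, the motor of the TIP60 complex, rose with the mATXN2 crRNA of every effector, by 0.29 (SE 0.045, edgeR adjusted p = 4.06e-04), 0.27 (SE 0.044, adjusted p = 0.00203) and 0.24 (SE 0.044, adjusted p = 0.00470) for RfxCas13d, HiFi-RfxCas13d and DiCas7-11. Srcap, which exchanges histone H2A.Z, rose with DiCas7-11 (0.24, SE 0.039, adjusted p = 0.00161). These calls were 1, 1 and 2 of the 13, beside 1.39%, 0.295% and 0.942% of all genes. For other genes with coding sequences over 8000 bases, the median log2 fold changes were 0.13, 0.18 and 0.13. Their upper quartile was 0.26 with each effector. No length-corrected values are given for this list, and the part of length in these rises was not tested. In the mean response Ep400 and Srcap were higher and Hells lower, 3 of 13 beside 5.19% of all genes. With the ASO 4 of the 13 were higher and 3 lower, or 53.8% called beside 42.7% of all genes. The largest were Smarca2 (-0.41, adjusted p = 2.07e-05), a BAF motor, Hells (-0.40, adjusted p = 4.89e-09) and Ino80 (0.39, adjusted p = 6.54e-09). With the NTG arms 1, 5 and 5 of the 13 were called, all higher, beside 11.3%, 21% and 21.9% of all genes called in either direction. Of these, the largest was Btaf1 with RfxCas13d (0.18), Ercc6 with HiFi-RfxCas13d (0.19) and Btaf1 with DiCas7-11 (0.22).

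Over the 24 samples, the levels of most members moved together, as a description without a test, since the samples share groups and libraries. Pearson's r of a member with the mean of the other 8 was 0.93 for Chd3, 0.91 for Chd7, 0.82 for Chd8 and Chd9, 0.75 for Chd2 and Chd4 and 0.68 for Chd6. It was 0.19 for both Chd1 and Chd5. Of 10904 other genes, those most like the mean of the family included Spen (r = 0.96), Bptf (0.95), Son (0.95) and Mdn1 (0.95). The family mean, on a standardized scale, was 1.30 to 1.52 in the ASO samples and at most 0.664 in the others. Neither the ASO difference nor coding length was removed from these correlations, and their part was not tested.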

How the data were processed

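RNA-seq of 24 samples was used, with the Kapa stranded mRNA kit and single-end reads per the labels. The authors quantified reads with Salmon (version 1.5.2) on the GRCm39 transcriptome and summed them with tximport (lengthScaledTPM). What they deposited is a table of expected counts, scaled by transcript length but not by library size, whose columns were tied to the samples through effector, arm and number in their names.

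Expected counts were rounded, normalized by TMM and tested with edgeR (version 4.0.16, R 4.3.3; quasi-likelihood) in 1 model of 8 groups, adjusting each comparison by Benjamini-Hochberg at a threshold of 0.05. Genes needed 0.5 CPM in 3 samples. Replicates were biologically independent per the series' design text. Alternatives were other scaling, filters, samples and tests (DESeq2 1.42.0, limma 3.58.1), a replicate block, a coding-length correction (lowess, span 0.3) and leaving out each library. Same-numbered samples were compared between mATXN2 and NTG, and between NTG or ASO and untransfected cells. They did not deviate together over all tested genes (correlations of -0.066 to 0.045), so samples were not paired. The NTG arms were not set against each other in this way. In their replicate 3, 8, 8 and 9 of 9 members lay above the group mean with RfxCas13d, HiFi-RfxCas13d and DiCas7-11. The scripts were tested on simulated data.

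Coding lengths came from GENCODE M21 (GRCm38), matched by Entrez identifier for 87.2% of tested genes, and took the place of protein lengths, which were not used here. That build is not the authors', so no coordinates are given. Named genes were all 9 members, Atxn2, and of each list (NuRD partners, ChAHP partners, other SNF2-family ATPases) at most the 3 largest calls per comparison. Genes most like the family were the 5 of highest correlation. Some items that these rules and the marker lists name are not reported here. The members and lists were chosen with earlier results of these data known.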

Additional observations from a re-analysis of the deposited data

How the results depend on the processing

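Over the comparisons, the count of members called kept within 1.5 times its value under other scalings and the genes the authors kept. With no filter on low counts, 1 (Chd4), 2 (Chd4 and Chd7) and 1 (Chd6) members were called for the crRNA of RfxCas13d, HiFi-RfxCas13d and DiCas7-11, and 2 for the NTG arms of DiCas7-11 against RfxCas13d. With only the groups compared, the counts were 1 (Chd4), 2 (Chd4 and Chd7), 0 for DiCas7-11 and 0 for those NTG arms. DESeq2 called 1 for DiCas7-11, and the limma-trend procedure 2, 4 and 3. With the replicate block, Chd6 was called for DiCas7-11 (0.18, adjusted p = 0.0259), 1 member in place of 0, and no other count changed by over 1.5 times. With the coding-length correction the mean response had 2 calls (Chd1 and Chd9, both lower) and the ASO 5, and with the replicate block added the mean response had 3 (Chd4 higher as well). Leaving out 1 library, the counts were 0 to 2 for the DiCas7-11 crRNA, 1 to 2 for RfxCas13d NTG, 3 to 7 for DiCas7-11 NTG, 0 to 4 for DiCas7-11 NTG against RfxCas13d NTG and 0 to 1 for HiFi-RfxCas13d NTG against DiCas7-11 NTG. By transcript length 34 of the 36 pairs of members kept the order of levels.

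Changes of direction were found only for values within 0.1 of 0. With the length correction, and with the block added to it, Chd2 (-0.016 and -0.016), Chd6 (-0.0066 and -0.0094), Chd7 (-0.016 and -0.015) and Chd9 (-0.031 and -0.031) turned negative for the RfxCas13d crRNA, Chd2 for DiCas7-11 (-0.014 and -0.013), Chd9 in the mean response (-0.079 and -0.079) and Chd4 (-0.014 and -0.014) and Chd5 (-0.077 and -0.077) with the ASO, while Chd2 turned positive for RfxCas13d NTG (0.019 and 0.017). Chd2 there was also positive by library size (0.0012), DESeq2 (2.8e-04) and limma-trend (0.0018), Chd9 was positive for DiCas7-11 by library size (0.0043) and for HiFi-RfxCas13d with no filter (0.0014). Leaving out 1 library turned only uncalled values, which ranged for the crRNA of RfxCas13d from -0.020 to 0.035 (Chd2), of HiFi-RfxCas13d from -0.016 to 0.021 (Chd9) and of DiCas7-11 from -0.047 to 0.015 (Chd1), -0.012 to 0.080 (Chd2) and -0.048 to 0.019 (Chd9). They ranged for RfxCas13d NTG from -0.056 to 0.037 (Chd2) and -0.043 to 0.0078 (Chd4), for Chd4 with HiFi-RfxCas13d NTG from -0.044 to 0.011 and DiCas7-11 NTG from -0.043 to 0.048, and for Chd5 with the ASO from -0.045 to 0.059.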

Other observations

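A gene outside the fixed lists was looked at after the change of Chd2 had been seen. Chaserr, named in the count table as the CHD2 adjacent suppressive regulatory RNA, is a long non-coding RNA gene annotated next to Chd2, with which its end overlaps in RefSeq's GRCm38.p6. It measured 8.91, 9.70 and 9.07 CPM in untransfected cells and 16.9, 17.2 and 16.3 CPM with the ASO. The groups did not overlap, as was so in the same direction for 25.8% of all genes. The log2 fold change was 0.86 (SE 0.088, edgeR adjusted p = 4.91e-09), beside 0.98 for Chd2, in a comparison where 42.7% of all genes were called. The 18 transfected samples lay between 9.83 and 12.9 CPM. In no comparison of mATXN2 with NTG was Chaserr called (log2 fold changes of -0.044, 0.13 and 0.087, with adjusted p of 0.902, 0.830 and 0.750), nor against untransfected cells in the NTG arms (0.27, 0.20 and 0.23, with adjusted p of 0.0677, 0.149 and 0.0856). How reads in the overlap were divided between the 2 genes was not tested.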
